A study of Mus musculus with 12 samples.

Results

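Hepatokines are proteins that the liver releases to act on other organs, and 9 genes of such proteins or of fasting signals were followed here: Fgf21, Gdf15, Inhbe, Inhbc, Nrg4, Fst, Angptl8, Lepr and Ahsg. They were chosen by name, with their levels in the 4 groups already known from earlier results on the same libraries, and the values that weighed in the choice are not recorded. All 9 were found among the 36144 gene symbols of the table, and all 9 were among the 11544 genes that passed a filter on low values, which asked for 1 TPM or more in 3 libraries or more (TPM is a share of all transcripts, per transcript length). Fgf21 passed only through the insulin group: it reached 1 TPM in 5 libraries, of which 2 were outside that group. For these 9 genes every change below, and whether it passed the threshold of the fit, is therefore a description and no independent evidence.

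The cells were primary hepatocytes of a WT C57/Bl6J mouse, taken out with collagenase, plated, and then held in serum-free medium for 16 h. FDMn cells had 6 µM manganese chloride through those 16 h and then, for 5 h, forskolin at 10 µM, a drug that raises cAMP, with the glucocorticoid drug dexamethasone at 1 µM. FDI cells had 100 nM insulin from 1 h before the same forskolin and dexamethasone, FD cells had forskolin and dexamethasone alone, and Mock cells had none of these agents. Each group had 3 poly-A libraries. The labels name 1 mouse and do not say whether replicates were separate preparations, so the spread between them may be technical. No group had manganese or insulin without forskolin and dexamethasone, and manganese was present for longer than insulin, so agent and time of exposure cannot be told apart.

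In fasting, glucagon raises cAMP and the adrenal gland releases glucocorticoid, and the liver answers with glucose output and with hormones that inform fat, muscle and brain; insulin turns much of this back after a meal. FGF21 and GDF15 are hormones that signal nutrient and cellular stress, and both genes can be switched on by ATF4, the transcription factor of the integrated stress response. INHBE and INHBC are the beta subunits of activins E and C, made almost only in liver, and follistatin (Fst) binds activins and keeps them from their receptors. ANGPTL8 is released after feeding and restrains lipoprotein lipase. AHSG (fetuin-A) is an abundant plasma glycoprotein, NRG4 is a small growth factor of the EGF family, and Lepr encodes the leptin receptor, which liver also sheds in soluble form.

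Promoter windows (250 bases before to 50 after the RefSeq start site, GRCm38.p6) were matched by symbol for 8 of the 9 genes, with 2 start sites each for Gdf15 and Lepr; Fst had none. The element bound by ATF4, written TGATGNAA or TTNCATCA on the other strand, was in the windows of Fgf21, Inhbe and Angptl8, and in 3.97% of all 32851 windows in the RefSeq table. These 3 windows are printed because they hold the element, and the same genes had the highest log2 changes of the 9 when insulin was added. Gdf15 was also called higher with insulin, and neither of its 2 windows held the element. Angptl8 did not pass in FDMn against FD. Whether the element bears on these changes was not tested. Each printed window reads 5′ to 3′ on the gene's strand, with the element in capitals. Counted from the start site, the element's first base is at −139 in Fgf21 (chr7:45615441-45615740, minus strand), at −181 in Inhbe (chr10:127351799-127352098, minus strand) and at −130 in Angptl8 (chr9:21835260-21835559, plus strand).
Fgf21: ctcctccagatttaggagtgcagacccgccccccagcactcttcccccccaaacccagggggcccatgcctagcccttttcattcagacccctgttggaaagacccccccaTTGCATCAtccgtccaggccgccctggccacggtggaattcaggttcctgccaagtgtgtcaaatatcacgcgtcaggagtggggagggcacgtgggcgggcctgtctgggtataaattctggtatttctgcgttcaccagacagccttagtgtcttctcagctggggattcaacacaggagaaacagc
Inhbe: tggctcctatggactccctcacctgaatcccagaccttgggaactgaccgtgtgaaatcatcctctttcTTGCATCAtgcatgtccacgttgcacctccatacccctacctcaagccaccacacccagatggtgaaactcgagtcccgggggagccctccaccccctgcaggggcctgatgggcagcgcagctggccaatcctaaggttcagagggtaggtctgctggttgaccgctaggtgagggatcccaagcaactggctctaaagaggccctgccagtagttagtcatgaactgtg
Angptl8: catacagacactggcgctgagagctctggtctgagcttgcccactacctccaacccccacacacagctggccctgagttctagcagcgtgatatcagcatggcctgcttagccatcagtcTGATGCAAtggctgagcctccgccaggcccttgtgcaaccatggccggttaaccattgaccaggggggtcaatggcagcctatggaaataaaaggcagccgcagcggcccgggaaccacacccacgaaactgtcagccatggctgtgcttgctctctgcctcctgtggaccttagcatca
The cAMP response element TGACGTCA was in none of the 8 genes' windows and in 1.79% of all windows, and its core TGACG, which the full element contains, was in that of Fgf21 and in 20.8% of all windows. The FOXO motif GTAAACA (3.65% of all windows) and the AP-1 motif TGANTCA (7.81%) were in none of the 8, and the glucocorticoid receptor hexamer AGAACA (19% of all windows) was in that of Ahsg. Every motif was searched on both strands. A match is not a bound site, no binding was measured here, and the GENCODE genes of Inhbe, Nrg4 and Ahsg extend upstream of the RefSeq start.

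Hepatocyte transcripts dominated every library: the summed level of 8 hepatocyte markers was 34020 to 34660 TPM in FDMn, 29180 to 29770 in FDI, 29870 to 39750 in FD and 31290 to 32470 in Mock. Most of that sum was Alb. It was at 27020 to 27730 TPM in FDMn and 22530 to 23230 in FDI. In FD it was at 22620 to 32590 TPM, and in Mock at 25420 to 26300. All 8 hepatocyte markers were tested: 4 were called higher in FD than in Mock, and 0 lower. In FDMn against FD 1 was higher and 2 were lower. In FDI against FD 2 were lower, and in FDMn against FDI 3 were higher. Markers of other cells were low, except those of cholangiocytes. The sum of 6 cholangiocyte markers was 1412 to 1606 TPM in FDMn, 761.9 to 808.7 in FDI, 732 to 802.8 in FD and 1082 to 1126 in Mock. The sum of 8 endothelial markers was 29.5 to 32.7 TPM in FDMn, 21.3 to 25.5 in FDI, 22.1 to 29.4 in FD and 19.9 to 21.6 in Mock. The sum of 9 Kupffer cell markers was 6.67 to 7.94 TPM in FDMn, 4.70 to 5.81 in FDI, 4.53 to 5.72 in FD and 3.65 to 5.03 in Mock. The 9 stellate cell markers summed to at most 5.66 TPM in any library, with Colec11 at 0 in all 12. The 4 mesothelial markers (Upk3b at 0 in all 12) reached at most 0.835 TPM and the 5 lymphocyte markers (Nkg7 at 0 in all 12) at most 0.409 TPM. Of the 6 cholangiocyte markers only 3 passed the filter and were tested: 2 were called higher in FDMn than in FD, 2 higher in FDI than in FD, and 3 lower in FD than in Mock. In FDMn against FDI 1 was higher and 2 were lower, although the sum was higher in FDMn. The sum thus does not stand for each marker. The part of these cells in the results below was not tested. Fewer cells of a type and less RNA per cell cannot be told apart in such libraries. Replicates correlated across genes with r of 0.981 or more.

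Forskolin and dexamethasone stand in for the fasting hormones, and FD against Mock shows the response to the pair. Nrg4, Gdf15, Ahsg and Lepr were higher in FD than in Mock, and Fgf21 and Inhbe were lower; Inhbc, Fst and Angptl8 did not pass. That is 4 of 9 genes higher and 2 lower at an adjusted p under 0.05 (limma over all genes, 3 against 3 libraries), where 11.2% of all genes tested were called higher and 29.9% lower. The balance over the table moved with the scaling. The middle log2 change over the 11544 genes was −0.15 with TPM as deposited, and it was −0.01 with median-of-ratios scaling, which called 2054 genes higher and 1982 lower in place of 1296 and 3447. The 9 genes kept the counts of 4 and 2 under that scaling.

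With manganese added, Fgf21 and Inhbe were higher and Fst was lower in FDMn than in FD, 2 and 1 of 9, where 7.22% of all genes were called higher and 7.90% lower. With insulin added, Fgf21, Gdf15, Inhbe and Angptl8 were higher and Nrg4 and Lepr lower in FDI than in FD, 4 and 2 of 9, where 10.2% of all genes were called higher and 4.35% lower. Set directly against FDI, FDMn had higher Nrg4 and lower Fgf21, Gdf15, Inhbe, Fst and Angptl8, 1 and 5 of 9, where 5.68% of all genes were called higher and 11.9% lower. Median-of-ratios scaling called 847 genes higher and 696 lower in FDI against FD in place of 1172 and 502, and 820 higher and 1005 lower in FDMn against FDI in place of 656 and 1375. FDMn and FDI are set against the same FD libraries, so their changes from FD share an error. Inhbc was the only one of the 9 that passed in none of the 4 comparisons. Counts in the gene lists below are to be read against the shares of all genes given above. In FD against Mock these were 11.2% higher and 29.9% lower.

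**Figure D1:**
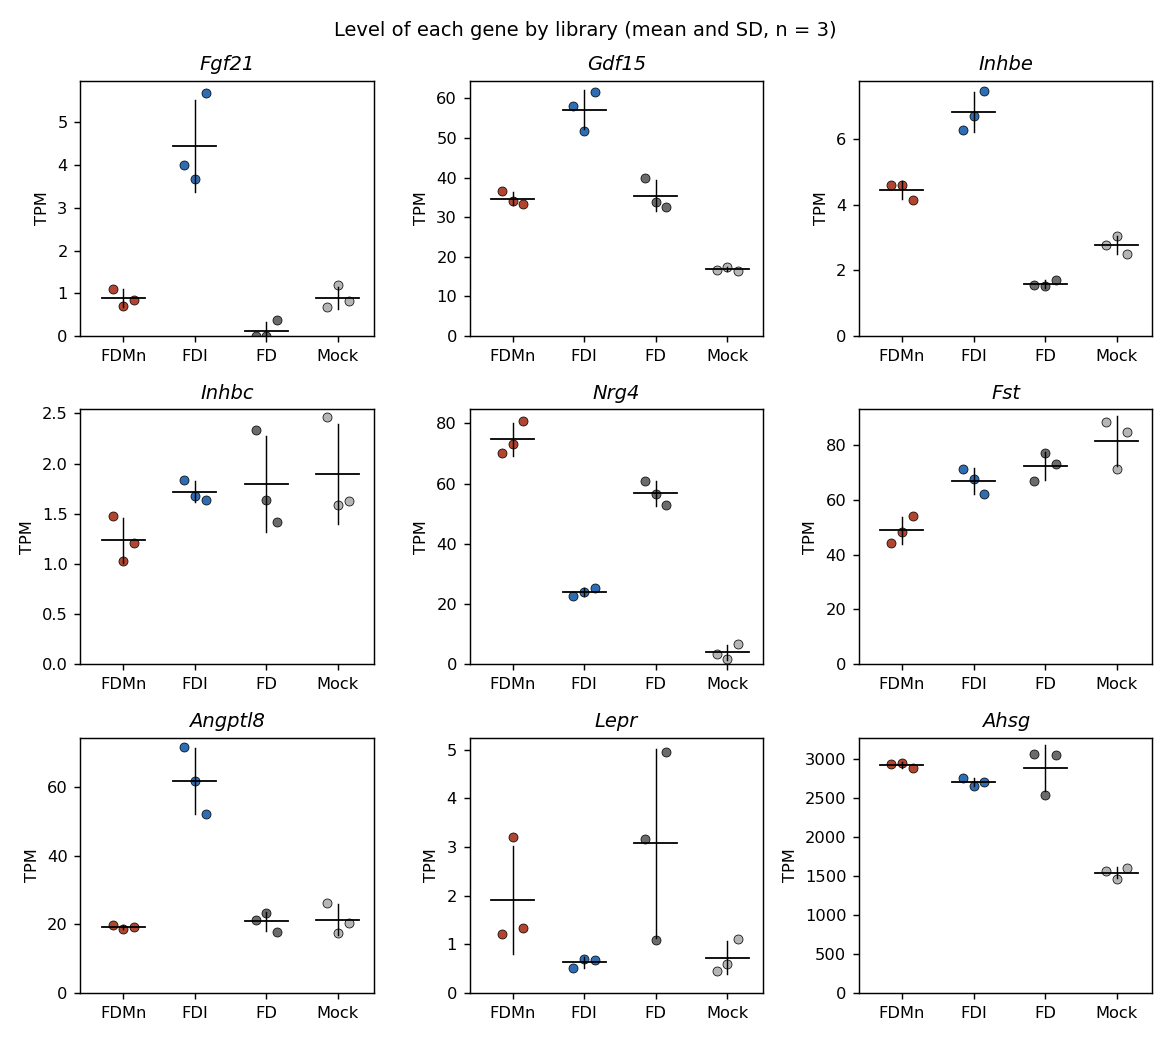
Level in TPM of each of the 9 genes in the 12 libraries (points), with the group mean (horizontal line) and SD (vertical line, n = 3), each panel with its own axis from 0. Fgf21, Inhbe, Gdf15 and Angptl8 were highest in FDI, Nrg4 was highest in FDMn, and Ahsg averaged 2712 to 2926 TPM in the 3 groups with forskolin and dexamethasone.

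Fgf21 is on chromosome 7 (45613886 to 45615490, GRCm38, minus strand). Its levels were 1.11, 0.695 and 0.844 TPM in FDMn, 4.0, 3.67 and 5.68 TPM in FDI, 0, 0 and 0.362 TPM in FD, and 0.683, 1.19 and 0.818 TPM in Mock. Every FDI library was above all the others and every FD library below all the others, while FDMn and Mock overlapped. On the log2(TPM + 1) scale the difference was 0.76 ± 0.20 (SE) for FDMn over FD, 2.28 ± 0.20 for FDI over FD, −1.52 ± 0.20 for FDMn over FDI and −0.77 ± 0.20 for FD over Mock. No fold is given against FD, in which 2 libraries are listed at 0. The pseudocount weighs on so low a gene: with 0.1 in place of 1 the difference was 2.54 for FDMn over FD, 4.75 for FDI over FD and −2.55 for FD over Mock. The FDMn call over FD was lost without FDMn replicate 1 or 3 or FD replicate 1 or 2, where the difference went as low as 0.67, and in a fit of the 2 groups alone.

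Of the genes around FGF21, the liver's main FGF receptor Fgfr4 was at 20.1 ± 2.69 TPM in FDMn, 42.1 ± 2.22 TPM in FDI, 31.1 ± 3.84 TPM in FD and 29.2 ± 4.98 TPM in Mock (SD, n = 3). It fell in FDMn against FD (log2 change −0.61 ± 0.13, limma adjusted p = 0.00947) and was lower in FDMn than in FDI (−1.04 ± 0.13, adjusted p = 0.000255). Its rise in FDI over FD (0.43 ± 0.13, adjusted p = 0.0492) was lost in 12 of 15 alternative settings. Fgfr1, the receptor through which FGF21 acts on fat, also fell in FDMn, to 13.4 ± 1.62 TPM against 19.5 ± 0.601 TPM in FD (adjusted p = 0.00249). Klb, the co-receptor that FGF21 needs, did not pass the filter, with 0.531 to 0.749 TPM in FDMn, 0.592 to 0.656 in FDI, 0.921 to 1.80 in FD and 0.750 to 0.981 in Mock, and Fap, the protease that inactivates FGF21, was below 1 TPM in every library.

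The nuclear receptor gene Ppara, which drives Fgf21 in fasting liver, rose in FD to 33.0 ± 4.89 TPM, against 2.13 ± 0.325 TPM in Mock (log2 change 3.44 ± 0.13, limma adjusted p = 1.18e-09), in the comparison in which Fgf21 was lower. Against FD it did not pass in FDMn (30.6 ± 3.19 TPM, limma adjusted p = 0.66) or in FDI (30.1 ± 3.86 TPM, limma adjusted p = 0.581). Creb3l3, a liver transcription factor that also acts on Fgf21, rose in FDMn to 20.4 ± 4.04 TPM against 12 ± 2.37 TPM in FD (adjusted p = 0.0148), a call lost without FDMn replicate 2 or FD replicate 1. In the list of 13 FGF21 receptors and regulators 10 genes were tested. In FD against Mock 4 rose and 1 fell, in FDMn against FD 1 rose and 2 fell, and in FDI against FD 1 rose and 1 fell. The gene that fell in FDI was Mlxipl, a call lost without any single FDI replicate or FD replicate 1 or 2. In FDMn, 2 rose without FD replicate 3. The list's median log2 changes were 0.09, −0.05 and −0.11, against −0.15, 0.00 and 0.04 over all genes. Fgf1, a growth factor of the same family, rose in FD to 35.8 ± 3.68 TPM against 4.57 ± 0.172 TPM in Mock (adjusted p = 3.91e-10).

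Gdf15 is on chromosome 8 (70629393 to 70632456, minus strand). Its levels were 36.6, 34.2 and 33.4 TPM in FDMn, 58.1, 51.8 and 61.5 TPM in FDI, 39.9, 33.7 and 32.7 TPM in FD, and 16.7, 17.5 and 16.4 TPM in Mock. The FDI libraries stood above all others and the Mock libraries below all others, and FDMn overlapped FD. FD was 2.10-fold higher than Mock (log2 change 1.02 ± 0.09, SE) and FDI 1.61-fold higher than FD (0.68 ± 0.09), while FDMn over FD was −0.02 ± 0.09 and did not pass. FDMn was lower than FDI by −0.70 ± 0.09. Gdf15 and Fgf21 thus went opposite ways in FD against Mock and the same way in FDI against FD. Gfral and Ret, which form the GDF15 receptor of the hindbrain, were at or near 0, with group means of at most 0.037 TPM.

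Around these hormones, 10 tested genes of the integrated stress response (of 12 listed) included 1 that rose (2 with either other scaling or without Mock replicate 2) and 4 that fell in FD against Mock, 7 that rose and 0 that fell in FDMn against FD, and 8 that rose and 0 that fell in FDI against FD. At an unadjusted p under 0.05, 0 fell in either. The list's median log2 change was −0.15 in FD against Mock, the same as over all genes, 0.54 in FDMn against FD (0.00 over all genes) and 1.03 in FDI against FD (0.04 over all genes). FDMn was below FDI for 6 of the 10 and above it for 0 (median −0.65). The list was drawn up with results of these libraries known, so it adds no independent evidence of direction.

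Atf4 itself rose to 231 ± 4.51 TPM in FDMn (limma adjusted p = 0.0019) and to 327 ± 13.6 TPM in FDI (adjusted p = 4.37e-06), against 176 ± 4.21 TPM in FD; Mock had 187 ± 18.5 TPM. Ddit3, which encodes the partner factor CHOP, was at 38.6 ± 2.45 TPM in FDMn, 82.2 ± 5.15 TPM in FDI, 13.2 ± 2.33 TPM in FD and 34.6 ± 10.4 TPM in Mock. Trib3, a pseudokinase that CHOP induces, was at 61.4 ± 7.78 TPM in FDMn, 112 ± 16.8 TPM in FDI, 21.6 ± 3.40 TPM in FD and 52.0 ± 15.4 TPM in Mock. Like Fgf21, both were highest in FDI and lowest in FD, with FDMn and Mock overlapping. Asns, Atf3 and Sesn2 were also higher in both FDMn and FDI than in FD, and Ppp1r15a in FDI; Asns and Eif2ak3 were among the 4 that fell in FD against Mock. Chac1, which degrades glutathione, rose to 73.7 ± 6.91 TPM in FDI against 16.0 ± 1.24 TPM in FD (log2 change 2.13 ± 0.10, adjusted p = 3.67e-07). The rise of Sesn2 in FDMn (log2 change 0.28 ± 0.08, adjusted p = 0.0359) was lost in 8 of 15 alternatives, and that of Atf3 (0.73 ± 0.17, adjusted p = 0.012) without FDMn replicate 2.

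**Figure D2:**
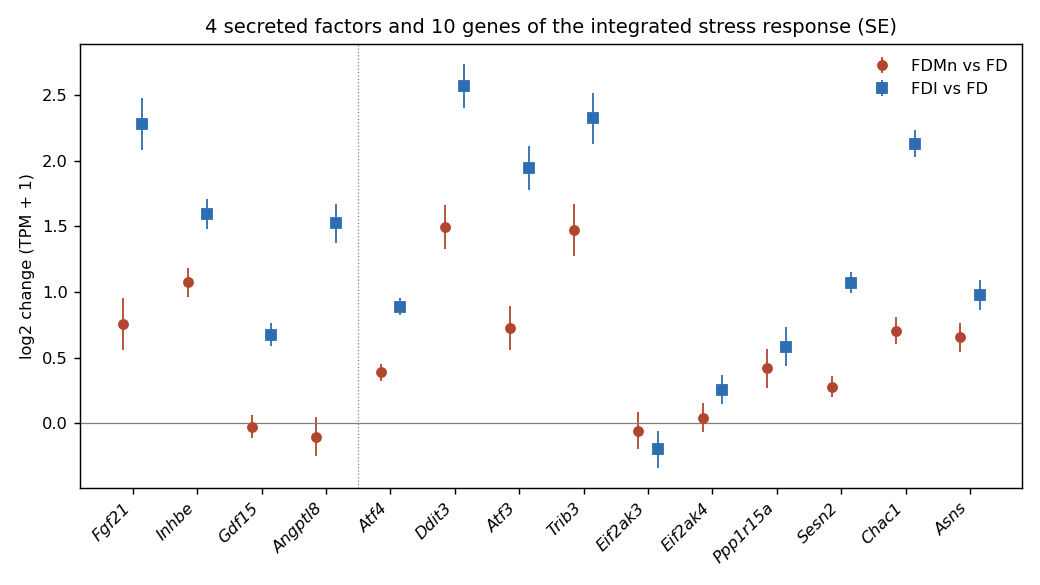
Log2 change (TPM + 1, SE) against FD of 4 secreted factors and the 10 tested stress response genes, with FDMn as circles and FDI as squares. Fgf21 and Inhbe lay above 0 in both, Gdf15 and Angptl8 in FDI but not beyond the threshold in FDMn, and both sets of changes share the 3 FD libraries.

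Inhbe and Inhbc are neighbours on the minus strand of chromosome 10 (127348857 to 127354411 and 127356322 to 127370431), 1910 bases apart. Inhbe was at 4.60, 4.60 and 4.14 TPM in FDMn, 6.28, 6.71 and 7.46 TPM in FDI, 1.54, 1.51 and 1.71 TPM in FD, and 2.77, 3.05 and 2.49 TPM in Mock. The 4 groups did not overlap, with FDI highest, then FDMn, Mock and FD. FDMn was 2.80-fold above FD (log2 change 1.07 ± 0.11, SE), FDI 4.30-fold above FD (1.59 ± 0.11), and FDMn lower than FDI by −0.52 ± 0.11; FD was lower than Mock by −0.54 ± 0.11. These 4 calls held in all 15 alternatives. At the filter of 5 TPM, Inhbe stayed in only through its FDI libraries, so its calls there add no support.

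Inhbc, though it lies next to Inhbe, did not follow it. It was at 1.48, 1.03 and 1.21 TPM in FDMn, 1.84, 1.68 and 1.64 TPM in FDI, 2.34, 1.64 and 1.42 TPM in FD, and 2.47, 1.59 and 1.63 TPM in Mock. FDMn lay below FDI and below Mock and overlapped FD, and the other 3 groups overlapped. None of its 4 differences passed, the farthest from 0 being −0.31 ± 0.17 (SE) for FDMn over FD. An annotated antisense gene, whose symbol is not among those listed with TPM, shares 268 bases of exon with Inhbc.

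Follistatin (Fst, chromosome 13, 114452290 to 114458951, minus strand) was at 44.1, 48.1 and 54.1 TPM in FDMn, 71.2, 67.5 and 61.9 TPM in FDI, 66.6, 76.9 and 72.9 TPM in FD, and 88.3, 71.0 and 84.6 TPM in Mock. The FDMn libraries lay below all 9 others, and the other 3 groups overlapped. FDMn was lower than FD by −0.56 ± 0.10 on the log2 scale (SE) and lower than FDI by −0.45 ± 0.10, and both calls held in each of the 15 alternatives. FDI over FD was −0.11 ± 0.10 and FD over Mock −0.17 ± 0.10, and neither passed. An annotated antisense gene, whose symbol is not among those listed with TPM, shares 115 bases of exon with Fst.

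The main activin transcript of these cells was that of another subunit. Inhba, the beta A subunit of activin A, was at 13.1 ± 1.56 TPM in FDMn, 29.6 ± 3.33 TPM in FDI, 12.3 ± 1.47 TPM in FD and 49.0 ± 4.35 TPM in Mock (SD, n = 3). It fell in FD against Mock (log2 change −1.91 ± 0.12, limma adjusted p = 8.98e-08), rose in FDI against FD (1.20 ± 0.12, adjusted p = 3.59e-05) and was 0.08 ± 0.12 in FDMn over FD (adjusted p = 0.714). For Inhba the direct difference of FDMn over FDI was −1.12 ± 0.12 (limma adjusted p = 6.07e-05).

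Since TPM is per transcript length, levels of the subunits can be added. Inhba, Inhbb, Inhbc and Inhbe together made 17.5 to 20.6 TPM in FDMn, 35.5 to 43.0 in FDI, 14.9 to 17.5 in FD and 51.9 to 59.3 in Mock. Inhbe supplied 22.3% to 23.7% of that sum in FDMn, 17.3% to 17.7% in FDI, 8.60% to 11.5% in FD and 4.79% to 5.33% in Mock, with no overlap. This share also depends on the sum and does not stand for the level of Inhbe. The share was higher in FD than in Mock, while Inhbe averaged 1.587 TPM against 2.769 TPM. It was also higher in FDMn than in FDI, while Inhbe averaged 4.445 TPM against 6.818 TPM. Fst transcripts were 2.15 to 3.09 times the sum in FDMn, 1.44 to 2.01 times in FDI, 4.03 to 4.89 times in FD and 1.20 to 1.70 times in Mock. The highest ratio was thus in FD. These sums were not tested.

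**Figure D3:**
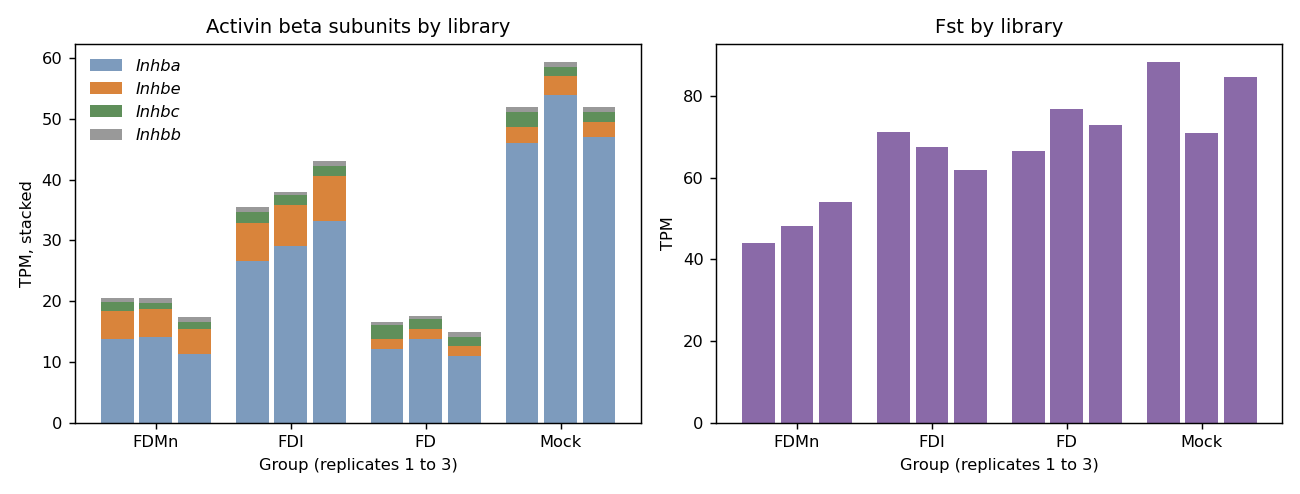
Left, TPM of the 4 activin beta subunit genes stacked for each library; right, TPM of the follistatin gene Fst; bars are single libraries, replicates 1 to 3 from left to right. Inhba made up most of each bar, Inhbe took 22.3% to 23.7% of it in FDMn and 4.79% to 5.33% in Mock, and Fst was lowest in the 3 FDMn libraries.

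Of 18 other genes of the activin and follistatin system 11 were tested. In FD against Mock 0 rose and 6 fell (4 with either other scaling), in FDMn against FD 0 passed in either direction by limma (0 at an unadjusted p under 0.05, and 0 adjusted with either other scaling), and in FDI against FD 3 rose and 1 fell; the median log2 changes were −0.40, 0.05 and 0.21, against −0.15, 0.00 and 0.04 over all genes. The receptor gene Acvr1 fell in FD to 7.04 ± 1.60 TPM against 28.3 ± 1.95 TPM in Mock (limma adjusted p = 5.69e-07) and was 11.7 ± 0.765 TPM in FDI (adjusted p = 0.00716 against FD). Smad3, which carries activin signals to the nucleus, fell to 19.0 ± 1.73 TPM in FD against 44.7 ± 4.88 TPM in Mock (adjusted p = 4.49e-06) and to 11.9 ± 1.19 TPM in FDI against FD (adjusted p = 0.00254). The activin receptor gene Acvr2a did not pass in any comparison, with group means of 5.36 to 6.38 TPM. Acvr2b was at 1.10 TPM in FD and 1.85 TPM in Mock, a call (limma adjusted p = 0.0412) lost in 12 of 14 alternatives. The second follistatin-like antagonist Fstl3 was at 2.47 ± 0.910 TPM in FDI and 1.17 ± 0.379 TPM in FD and did not pass (adjusted p = 0.0626). Inha, the alpha subunit that turns activins into inhibins, was listed at 0 in all libraries, Inhbb was at group means of 0.603 to 0.770 TPM, and Acvr1c at no more than 0.021.

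Nrg4 showed the highest fold of the 9 in FD against Mock. The gene lies on chromosome 9 (55220222 to 55326844, minus strand) and encodes a ligand of the receptor ERBB4, known best as a product of brown fat that acts on liver. It was at 70.2, 73.2 and 80.7 TPM in FDMn, 22.8, 24.2 and 25.4 TPM in FDI, 60.9, 56.4 and 52.9 TPM in FD, and 3.31, 1.95 and 6.77 TPM in Mock. All 4 groups were apart, with FDMn highest and Mock lowest. FD was 14.2-fold above Mock (log2 change 3.64 ± 0.25, SE), which exceeded in size the change of 99.8% of all genes tested. Without Mock replicate 3, the highest of its group, the fold was 21.6. It was 11.3 without Mock replicate 2, the lowest, and 13.0 without Mock replicate 1. FDI was lower than FD by −1.20 ± 0.25 and its libraries still lay above those of Mock. FDMn was 1.32-fold above FD (0.39 ± 0.25) and did not pass, although in a fit of the 2 groups alone it did; the direct difference of FDMn over FDI was 1.59 ± 0.25.

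Exons of Nrg4 share 368 bases with those of Fbxo22 on the opposite strand, and the use of strand is not given in the sources used here, so reads of that stretch cannot be told apart. Fbxo22 was at 56.9 to 61.8 TPM in FDMn, 62.5 to 66.7 in FDI, 61.1 to 68.1 in FD and 68.0 to 72.5 in Mock. A pseudogene that also overlaps Nrg4 was listed at 0 in all libraries. Erbb4, the receptor of NRG4, was near 0, at group means of at most 0.016 TPM. Erbb3, a related receptor, fell to 5.13 ± 0.348 TPM in FDMn (log2 change −0.90 ± 0.11, limma adjusted p = 0.000283) and to 3.03 ± 0.291 TPM in FDI (−1.51 ± 0.11, adjusted p = 4.48e-06), against 10.5 ± 1.13 TPM in FD.

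Of the other EGF family genes Tgfa went the same ways as Nrg4 with FD and with insulin. Of 14 ligand and receptor genes 7 were tested: 1 rose and 4 fell in FD against Mock (2 fell with either other scaling), 1 rose and 1 fell in FDMn against FD, and 2 rose and 2 fell in FDI against FD, with median log2 changes of −0.59, 0.21 and −0.08 against −0.15, 0.00 and 0.04 over all genes. In FD against Mock 2 fell without FD replicate 3 or Mock replicate 2 or 3. In FDMn against FD 0 rose and 2 fell without FDMn replicate 1, and 2 rose without FDMn replicate 3 or FD replicate 2. Betacellulin (Btc) fell in FD to 3.60 ± 0.679 TPM against 9.69 ± 0.373 TPM in Mock (limma adjusted p = 1.31e-05), and Nrg1 fell to 26.3 ± 1.65 TPM against 42.3 ± 1.48 TPM (adjusted p = 1.77e-05). Areg, which encodes amphiregulin, rose in FDI to 8.70 ± 1.46 TPM against 2.82 ± 1.02 TPM in FD (adjusted p = 0.000784), where Nrg4 was lower. Tgfa rose to 28.0 ± 1.58 TPM in FD against 19.3 ± 0.714 TPM in Mock (adjusted p = 7.75e-05), and its fall to 23.7 ± 0.790 TPM in FDI against FD (adjusted p = 0.0375) was lost in 7 of 15 alternatives, among them without any single FDI replicate or FD replicate 1 or 3. Hbegf rose in FDI to 6.38 ± 1.70 TPM against 1.63 ± 0.741 TPM in FD (adjusted p = 0.00192). Egfr, the abundant receptor of the family, was at 111 ± 6.29 TPM in FDMn, 91.0 ± 12.1 in FDI, 95.7 ± 3.16 in FD and 94.5 ± 5.75 in Mock; its call of FDMn over FDI (adjusted p = 0.0397) was lost in 8 of 15 alternatives.

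**Figure D4:**
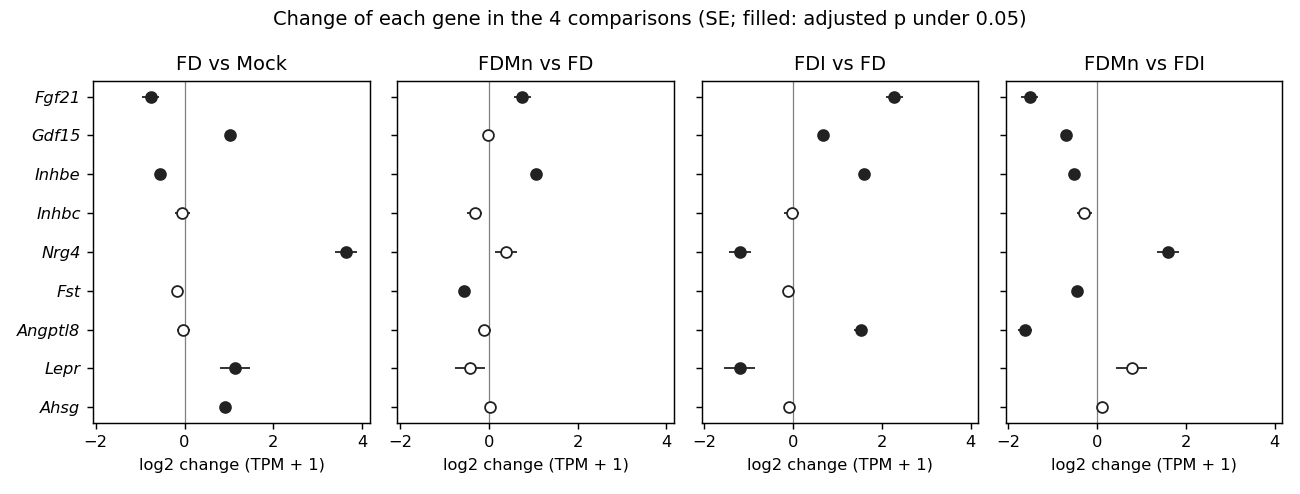
Log2 change (TPM + 1) with SE of each of the 9 genes in the 4 comparisons, each named with the group on top of the difference first; filled points passed an adjusted p of 0.05. Nrg4 reached 3.64 in FD over Mock, and FDMn over FDI had 5 filled points below 0 and Nrg4 above it.

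Angptl8, on chromosome 9 (21835510 to 21837347, plus strand), passed in both comparisons that involve insulin and in neither of the others. It was at 19.7, 18.7 and 19.2 TPM in FDMn, 71.6, 61.7 and 52.3 TPM in FDI, 21.2, 23.4 and 17.8 TPM in FD, and 26.3, 17.4 and 20.4 TPM in Mock. The FDI libraries stood apart and the other 9 overlapped. FDI was 2.97-fold above FD (log2 change 1.52 ± 0.15, SE), and FDMn was lower than FDI by −1.62 ± 0.15, while FDMn over FD was −0.10 ± 0.15 and FD over Mock −0.03 ± 0.15; the last 2 did not pass. The gene lies inside Dock6, on the opposite strand, with which it shares no exon base; Dock6 was at 1.12 to 3.91 TPM over the libraries.

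Angptl4, the fasting inhibitor of lipoprotein lipase, went the other way from Angptl8 with insulin: it fell to 30.1 ± 3.76 TPM in FDI (log2 change −0.95 ± 0.12, limma adjusted p = 0.000225) and to 38.4 ± 1.98 TPM in FDMn (−0.60 ± 0.12, adjusted p = 0.00465), against 59.1 ± 6.55 TPM in FD. Lpl itself was at group means of 0.212 to 0.294 TPM. Of 9 tested genes of this system, 2 rose and 0 fell in FD against Mock (Apoc3 and Apoa5; 4 rose with median-of-ratios scaling), 1 rose and 2 fell in FDMn against FD, and 0 rose (also 0 at an unadjusted p under 0.05) and 1 fell in FDI against FD; the median log2 changes were 0.10, −0.08 and −0.07 against −0.15, 0.00 and 0.04 over all genes. The 1 that rose in FDMn was Apoa5, a call lost in 9 of 15 alternatives, among them without any single FDMn or FD replicate; in FDI against FD 2 fell without FD replicate 3. Apoc2, the activator of the lipase, fell in FDMn to 105 ± 7.12 TPM against 151 ± 12.9 TPM in FD (adjusted p = 0.000421).

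Lepr, on chromosome 4 (101717404 to 101815352, plus strand), was the least even of the 9. It was at 1.20, 3.20 and 1.33 TPM in FDMn, 0.503, 0.707 and 0.678 TPM in FDI, 3.16, 1.09 and 4.96 TPM in FD, and 0.458, 0.598 and 1.11 TPM in Mock. FD replicate 2 lay within the Mock range, and FDI was below all FD and all FDMn libraries. The log2 change was 1.13 ± 0.35 (SE) for FD over Mock and −1.20 ± 0.35 for FDI over FD, and both passed; FDMn over FD was −0.42 ± 0.35 and FDMn over FDI 0.77 ± 0.35, and neither passed. With a pseudocount of 0.1 these were 1.80 for FD over Mock and −1.90 for FDI over FD. The FD call over Mock was lost without FD replicate 1 or 3 or Mock replicate 1 or 2, and the FDI call without any single FDI replicate or FD replicate 1 or 3; both were lost with no filter and in a fit of the 2 groups alone.

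Of 15 genes of leptin receptor signalling and shedding 14 were tested: 3 rose and 7 fell in FD against Mock (Osmr, Jak2, Leprotl1, Adam10, Leprot, Sh2b1 and Ptpn1; 5 fell with either other scaling), 1 rose and 1 fell in FDMn against FD, and 2 rose and 1 fell in FDI against FD, with median log2 changes of −0.19, −0.01 and −0.02 against −0.15, 0.00 and 0.04 over all genes. The 1 that rose in FDMn was Leprotl1, a call lost without any single FDMn replicate or FD replicate 1 or 2, while 2 rose without FD replicate 3. In FDI against FD 1 rose without FDI replicate 1 or 3 or FD replicate 1 or 2. Leprot, which holds the receptor inside the cell, fell to 14.7 ± 3.19 TPM in FD against 22.5 ± 1.16 TPM in Mock (limma adjusted p = 0.00284), the opposite direction to Lepr. The receptor genes Il6ra and Osmr, of the same cytokine receptor family, parted: Il6ra rose to 30.1 ± 0.650 TPM in FD against 5.59 ± 0.0801 TPM in Mock (adjusted p = 1.52e-09), and Osmr fell to 4.68 ± 0.942 TPM against 12.9 ± 1.36 TPM (adjusted p = 6.51e-05). Stat3, which these receptors activate, fell to 49.0 ± 1.01 TPM in FDMn (adjusted p = 0.00291) and to 52.9 ± 5.31 TPM in FDI (adjusted p = 0.00959), against 73.4 ± 10.0 TPM in FD. Socs3, a feedback inhibitor that STAT3 induces, did not pass in any comparison, with group means of 1.33 to 1.63 TPM, and leptin itself (Lep) was listed at 0 throughout.

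Ahsg, on chromosome 16 (22891277 to 22899449, plus strand), was by far the most abundant of the 9. It was at 2938, 2956 and 2884 TPM in FDMn, 2760, 2662 and 2715 TPM in FDI, 3065, 2542 and 3058 TPM in FD, and 1561, 1465 and 1600 TPM in Mock. All 9 libraries with forskolin and dexamethasone lay above the 3 Mock libraries. FD was 1.87-fold above Mock (log2 change 0.90 ± 0.07, SE), and the call held in each of the 15 alternatives. FDMn over FD was 0.02 ± 0.07, FDI over FD −0.09 ± 0.07 and FDMn over FDI 0.11 ± 0.07, and none of these passed; without FD replicate 2, FDI was called lower than FD. An annotated antisense gene, whose symbol is not among those listed with TPM, shares 62 bases of exon with Ahsg.

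Fetub, the paralogue of Ahsg, stayed within 286 to 324 TPM on average and did not pass in FD over Mock (log2 change 0.06 ± 0.06, limma adjusted p = 0.425), though it did with median-of-ratios scaling. Of 13 abundant plasma protein genes, all tested, 5 rose and 0 fell in FD against Mock, with a median log2 change of 0.12 against −0.15 over all genes. Ttr, the thyroxine carrier transthyretin, rose 1.41-fold (0.49 ± 0.06, adjusted p = 2.28e-05), and Alb, the gene of albumin, did not pass, with 28600 ± 5270 TPM in FD and 25800 ± 451 TPM in Mock (0.13 ± 0.10, adjusted p = 0.331), though it did with median-of-ratios scaling or without FD replicate 3. With median-of-ratios scaling 11 of the 13 rose, and 3 did without FD replicate 1 or Mock replicate 2. In FDMn against FD 4 rose and 0 fell, and in FDI against FD 0 rose and 1 fell. The 4 became 0 without FDMn replicate 2 and 2 without FDMn replicate 1, FDMn replicate 3 or FD replicate 2, and 1 fell in FDMn without FD replicate 3. In FDI 3 fell with median-of-ratios scaling or without FD replicate 3, and 2 with quantile normalization. Hrg, which encodes histidine-rich glycoprotein, was at 121 ± 3.06 TPM in FDMn (limma adjusted p = 0.0142) and 89.8 ± 1.51 TPM in FDI (limma adjusted p = 0.0125), against 104 ± 1.36 TPM in FD; the FDMn call was lost without FDMn replicate 2.

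Beyond the 9, 22 other genes of secreted liver factors were all tested. In FD against Mock 8 rose and 2 fell (16 and 1 with median-of-ratios scaling), in FDMn against FD 5 rose and 5 fell, in FDI against FD 3 rose and 2 fell, and in FDMn against FDI 5 were higher and 4 lower; the median log2 changes were 0.18, −0.02, −0.04 and 0.02, against −0.15, 0.00, 0.04 and −0.04 over all genes. In FD against Mock 1 fell without FD replicate 1 or 3 or Mock replicate 1 or 2, and in FDMn against FD 3 fell without FDMn replicate 1 or 3 or FD replicate 1. In FDI against FD 4 fell with median-of-ratios scaling or without FD replicate 3, and 5 with quantile normalization. In FDMn against FDI 9 were higher and 3 lower with quantile normalization; 2 were higher without FDMn replicate 2, FDI replicate 2 or FDI replicate 3, and 3 without FDMn replicate 1 or 3. The gene of tsukushi (Tsku), a secreted proteoglycan, was, like Gdf15, highest in FDI and lowest in Mock, with 94.5 ± 4.63 TPM in FDMn, 124 ± 3.05 TPM in FDI, 82.5 ± 6.88 TPM in FD and 45.5 ± 2.27 TPM in Mock; FD over Mock (limma adjusted p = 1.22e-06) and FDI over FD (adjusted p = 0.000162) passed. Igfbp1, which insulin represses, fell in FDI to 25.2 ± 3.60 TPM against 282 ± 35.5 TPM in FD (adjusted p = 2.04e-08), the same direction as Nrg4 and Lepr. Enho, which encodes the peptide adropin, rose to 17.1 ± 1.26 TPM in FDMn (adjusted p = 0.00026) and to 12.8 ± 1.60 TPM in FDI (adjusted p = 0.00617), against 8.11 ± 1.31 TPM in FD. Angiotensinogen (Agt) rose in FD to 490 ± 55.9 TPM against 69.3 ± 1.87 TPM in Mock (adjusted p = 2.21e-11) and fell in FDMn to 317 ± 4.28 TPM (adjusted p = 0.000133).

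The genes whose pattern lay nearest to each of the 9 were found by the root mean square difference of log2(TPM + 1), centred per gene, over the 12 libraries. For Fgf21 these were Slc7a1 (0.18), a carrier of basic amino acids, then Trib3 (0.36) and Thbs1 (0.36). Slc7a1 averaged 4.02 TPM in FDMn, 10.1 in FDI, 1.73 in FD and 3.07 in Mock. For Inhbe they were Mthfd2 (0.12), a mitochondrial folate enzyme, Dusp5 (0.16) and Ifrd1 (0.18), and for Gdf15 Ddit4 (0.11), Nfil3 (0.12) and Hspb8 (0.13). Mthfd2 averaged 46.0 TPM in FDMn, 63.3 in FDI, 22.9 in FD and 36.8 in Mock.

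For Nrg4 the nearest were Arg1 (0.40), the last enzyme of the urea cycle, Cdo1 (0.51), which oxidises cysteine, and Slc7a2 (0.56), where Nrg4 itself had an SD of 1.60 over the libraries. Arg1 averaged 65.1 TPM in FDMn, 26.9 in FDI, 88.2 in FD and 5.61 in Mock. For Angptl8 they were Adm2 (0.25), Hk2 (0.26) and Ccn2 (0.28), and Hk2, a hexokinase, averaged 4.28 TPM in FDMn, 11.6 in FDI, 4.91 in FD and 3.58 in Mock. For Lepr they were Zfp949 (0.36), Lpin2 (0.39) and Prox1 (0.39), for Fst BC025446 (0.09), Aldh3a2 (0.09) and Cd47 (0.11), and for Ahsg Ripk4 (0.08), Camk2b (0.10) and Rsph3b (0.10). Each is a likeness of levels over 12 libraries in 4 groups and carries no test. The differences are to be read against the SD of the gene itself over the libraries. That SD was 0.85 for Fgf21, 0.61 for Gdf15, 0.60 for Inhbe and 0.69 for Angptl8. For Lepr it was 0.64, for Fst 0.29 and for Ahsg 0.39.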

How the data were processed

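The authors deposited 1 table of gene-level TPM, whose columns were assigned to samples through the library names in the sample descriptions. The submitters' processing notes name the tool kallisto (0.44.0), the build GRCm38.p6 and, without a role, DESeq2; the annotation release, strand setting and filters are not stated. Each TPM column has the same total and keeps no read number, so depth is unknown and no counting interval is given. Log2(TPM + 1) of the 11544 genes with 1 TPM or more in 3 libraries or more was fitted in limma 3.58.1 (R 4.3.3), with 1 term per group over all 12 libraries and an intensity trend. P-values are two-sided and were adjusted by Benjamini-Hochberg over those genes, with a threshold of 0.05. The fit was tested on simulated data. The simulated noise was normal, independent between libraries and, for each gene, of the same spread in every group. It thus does not speak for very low levels or for a shared preparation. Folds are ratios of mean TPM, and log2 changes understate those of low genes.

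The 9 genes, the lists, the motifs and the alternatives were chosen with earlier results of these data known. Other genes come from a rule: up to 6 per list and comparison with the smallest adjusted p, a named set of receptors, antagonists and regulators, and the 3 nearest patterns of each of the 9 that passed in a comparison, predicted genes and pseudogenes left out; not every gene the rule takes is described, and a few are not reported here. Gene positions and overlaps are from GENCODE M21 (GRCm38), and promoter windows from RefSeq (GRCm38.p6). Pseudocounts, filters, scalings, a fit of the compared groups alone, a replicate block, a fit without the trend and the loss of each library were tried.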

Additional observations from a re-analysis of the deposited data

How the results depend on the processing

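Across 15 alternatives per comparison no call changed direction. A filter at 5 TPM removed Fgf21, Inhbc and Lepr, which left 1 of the 9 genes lower in FD against Mock, 1 higher in FDMn against FD and 1 lower in FDI against FD. That last count was also 1 with no filter and in a fit of the compared groups alone, where Lepr was lost. Inhbe passed the filter at 5 TPM only through its FDI libraries. Over all genes, FD against Mock gave 2054 higher and 1982 lower with median-of-ratios scaling and 2178 lower with quantile normalization, FDMn against FDI gave 909 lower with quantile normalization, and FDI against FD gave 681 higher and 304 lower in the fit of the compared groups alone. With 1 library left out in turn, the 9 genes held 1 to 2 higher in FDMn against FD and 1 to 3 lower in FDI against FD. All genes then held 478 to 1005 higher and 540 to 1020 lower in FDMn against FD, 733 to 1438 higher and 321 to 683 lower in FDI against FD, and 404 to 498 higher in FDMn against FDI, with 922 to 989 lower. The lowest FDMn against FD counts came without FDMn replicate 1 and the highest without FD replicate 3. Except where fewer genes or libraries entered, the cause was not tested.

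No pairing by replicate number was seen: over 18 same-numbered pairs the deviations from group means correlated at −0.0976 to 0.0684, with 0 over 0.1. With 3 libraries per group this cannot exclude that same-numbered samples share a preparation. A replicate block left 1 of the 9 genes lower in FDI against FD, without Lepr, and otherwise gave the 9 genes the same counts; all genes had 1039 higher and 452 lower in that comparison. Unknown depth and levels near 1 TPM limit Fgf21, Inhbc and Lepr, and also the folds of Inhbe against FD, where it was at 1.51 to 1.71 TPM.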
